A study of Liolaemus parthenos with 3 samples.

Results

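Penelope-like elements are a group of retrotransposons, mobile elements that copy themselves through RNA. They were chosen here by name: the 1 row named Penelope of a table of 31 retrotransposon subfamilies, and the 12 of 480 assembled transcripts in the quantification files whose deposited element name is Penelope. The RNA came from 3 organs of a single adult Liolaemus parthenos, a parthenogenetic South American lizard: brain, ovary and liver, with 1 library each, no treatment and no genotype contrast. Reads carried no strand information, so an element's transcript and a gene read on the other strand cannot be told apart. With 1 library per tissue there was no replicate check: every interval below is an exact 95% interval for counting error only, and each difference describes these libraries. The labels name no molecular identifiers, so reads are not separate molecules and the intervals may be too narrow.

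Penelope-like elements encode a reverse transcriptase that is related to that of telomerase, and many also carry an endonuclease of the GIY-YIG type. They insert by a target-primed mechanism, as the long interspersed elements (LINE) do, but form a lineage of their own. The founding element was described in the fly Drosophila virilis, where its mobilisation accompanies hybrid dysgenesis, and relatives are found in fish, amphibians and reptiles. A transcript that carries such a name can come from an active copy, from a truncated old copy or from a gene whose transcript includes a fragment of one.

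The names of ovary and liver differ between the sources. Values of the subfamily table are given under its column headers, Brain, Ovary and Liver. Quantification files are called by the sample record that holds them (ovary-record and liver-record library), although the file of the ovary record bears the name of the liver, and the other way round. No value was used to assign the files, so the summed ratios from the files, and their shares of the table, are also given with these names exchanged. Values of some other subfamilies that bear on the naming, in both directions, are given with these ratios. The table held 5468656, 1143616 and 1717904 reads in these 3 columns. The files held 16405 for brain, 4651 for the ovary-record and 10644 for the liver-record library. Tissue marker genes were not analysed here, since the files name elements alone.

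In the subfamily table, Penelope was present in all 3 columns and had its highest share of reads under Ovary. It counted 8554 reads under Brain, 5486 under Ovary and 1298 under Liver. As a share of all reads of the column this was 0.156% under Brain (0.153 to 0.160), 0.480% under Ovary (0.467 to 0.493) and 0.0756% under Liver (0.0715 to 0.0798). The Ovary column was the highest and the Liver column the lowest, and no pair of intervals overlapped. In bulk tissue, fewer cells that transcribe an element and less RNA per cell cannot be told apart.

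SINE3, a group of short elements derived from 5S ribosomal RNA genes, makes up most reads of each column and thereby sets the total. Outside SINE3, Penelope took 1.82% of the reads under Brain (1.79 to 1.86), 2.15% under Ovary (2.09 to 2.20) and 0.481% under Liver (0.455 to 0.508). Brain and Ovary were then 1.18-fold apart, with intervals that still did not overlap, and the Liver column was low. Among reads of the LINE class with Penelope included, the share was 3.61% under Brain (3.54 to 3.69), 5.03% under Ovary (4.90 to 5.16) and 0.856% under Liver (0.811 to 0.904). The order of the 3 columns was the same for each of these totals.

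**Figure D1:**
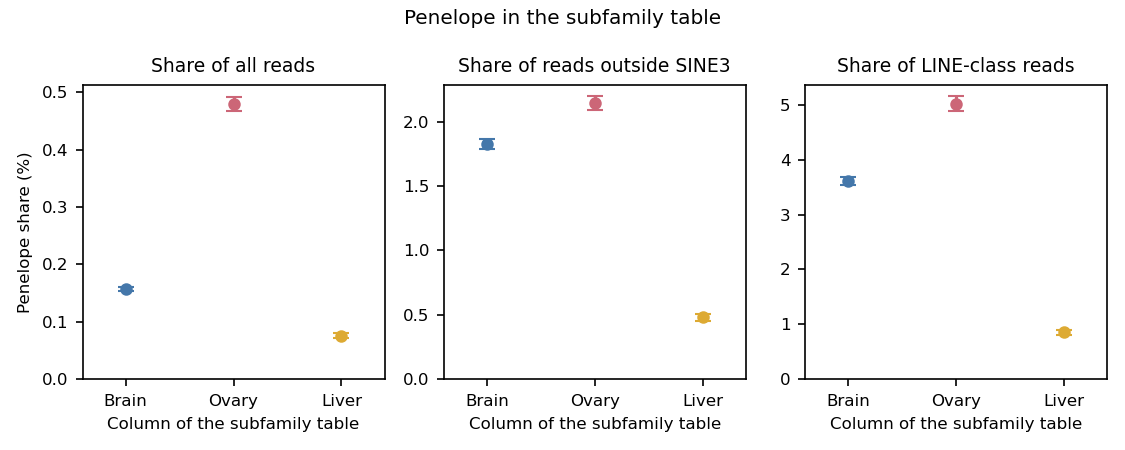
Share of Penelope reads (%, vertical axes from 0) in the 3 columns of the subfamily table, out of all reads, of reads outside SINE3 and of LINE-class reads; points are single libraries and bars are exact 95% counting intervals. The Ovary column is highest and the Liver column lowest in each panel, and Brain lies near Ovary once SINE3 is left out (1.82% and 2.15%).

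Read number, which also depends on element length, placed Penelope in the middle of the 31 subfamilies. It ranked 10 under Brain, 13 under Ovary and 16 under Liver, and among the 16 rows of the LINE class it ranked 4, 4 and 6. In the Brain column it stood between the endogenous retrovirus groups ERV1 with 18798 reads and ERV3 with 8402. In the Ovary column its neighbours were the short elements SINEU with 6518 reads and the retrovirus group ERV2 with 4775. In the Liver column they were Ngaro, a tyrosine recombinase element, with 1329 reads and R4-Dong, a LINE, with 1103.

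The pattern over the 3 columns can be compared between subfamilies without any choice of total, because a common factor per column shifts all of them alike. Per 100 reads of CR1, the most abundant LINE, there were 5.96 Penelope reads under Brain, 8.56 under Ovary and 1.06 under Liver. Per 100 reads of L1, another LINE, there were 28.5, 25.2 and 14.0. Against both, the Liver column held the fewest Penelope reads, which was not so against every subfamily. Among subfamilies with at least 20 reads in every column, it held the most against ERV3 and Gypsy. Against Pao and ERV it held more than the Ovary column, and against NeSL and SINE2 more than the Brain column. Per 100 reads of L1 the Brain column held the most, while per 100 reads of CR1 the Ovary column did.

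For each pair of columns, a subfamily was called higher or lower when its share differed at least 2-fold, both libraries together held at least 20 reads and the interval of the ratio lay on one side of 1. Penelope was called lower under Brain than under Ovary, as were 53.6% of the 28 subfamilies with enough reads (3.57% were higher), so its direction was that of most. Its log2 ratio of -1.62 was the ninth lowest of 28, beside a median of -1.04 over all of them and of -0.75 over the 14 LINE subfamilies ranked. Of the 15 LINE subfamilies without Penelope, 5 were lower, 1 was higher, 8 were neither and 1 had too few reads. Leaving out SINE3 brought the Penelope ratio to -0.23. Under the other 4 totals and scalings tried the difference was 1.39-fold to 1.94-fold, so the 2-fold call held only for shares of all reads.

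Against the Liver column, Penelope was called higher in both other columns. In the Brain column it was 2.07-fold higher (1.95 to 2.20), where 21.4% of 28 subfamilies were called higher and as many lower, and its log2 ratio of 1.05 was above those of 21 of them. The median over all was 0.29, and that over the 14 LINE subfamilies ranked was 0.37. In the Ovary column it was 6.35-fold higher (5.98 to 6.75), where 65.4% of 26 subfamilies were called higher and 3.85% lower. Its log2 ratio of 2.67 was above those of 20 of them, with a median of 1.54 over all and of 1.05 over 13 LINE subfamilies. Of the 15 LINE subfamilies without Penelope, 2 were higher and 3 lower under Brain than under Liver. For ovary against liver, 7 were higher and 0 lower. The call of brain over liver for Penelope ended with TMM factors (1.51-fold), with median-of-ratios factors (1.56-fold) and in the deposited log2 CPM (1.56-fold), and the difference was 3.79-fold without SINE3. That of ovary over liver stayed above 2-fold under these settings, at 2.28-fold with TMM factors.

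The subfamily whose pattern lay nearest to Penelope was Gypsy, a long terminal repeat (LTR) retrotransposon. The measure was the Euclidean distance between log2 shares, each centred on the subfamily's own mean over the 3 columns, among 23 subfamilies with at least 20 reads in every column. Gypsy lay at 0.16 (log2 units), ahead of NeSL, a LINE, at 0.62 and DIRS, a tyrosine recombinase element, at 0.77. The centred log2 share of Penelope was -0.19 under Brain, 1.43 under Ovary and -1.24 under Liver, and that of Gypsy was -0.11, 1.47 and -1.37. There were 23.5 Penelope reads per 100 Gypsy reads under Brain, 24.1 under Ovary and 27.2 under Liver. This likeness is over 3 libraries and is a description.

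**Figure D2:**
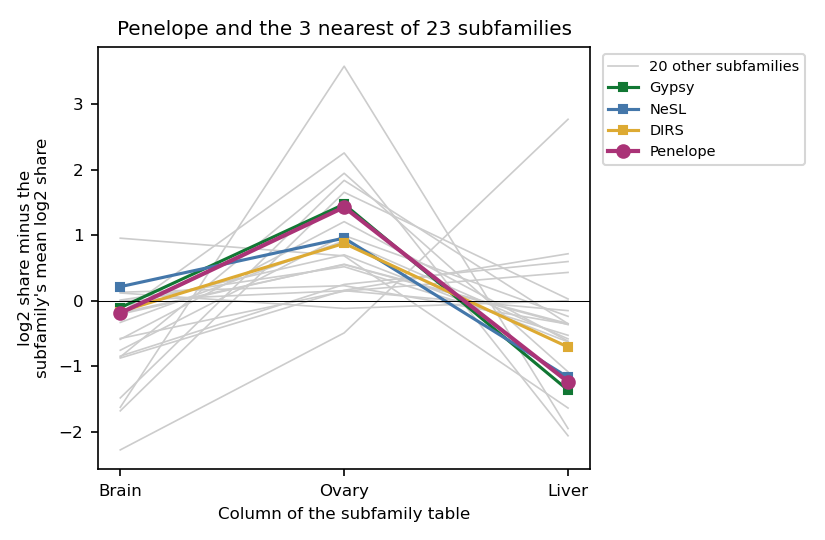
Log2 share of each subfamily minus its own mean over the 3 columns (vertical axis, log2 units) by column of the subfamily table, for Penelope, the 3 nearest subfamilies and, in grey, the 20 others with at least 20 reads in every column. Penelope and Gypsy nearly coincide, high under Ovary (1.43 and 1.47) and low under Liver (-1.24 and -1.37).

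The deposited names show how the Penelope reads of the table could be spread over assembled sequences. Of 19207 named transcripts, 497 (2.59%) were named Penelope, the seventh largest number of any subfamily. By the naming scheme of the transcripts, in which a read cluster (DN) splits into components (c), genes (g) and isoforms (i), they fell into 245 clusters, 289 components and 319 genes. A gene held 1.56 Penelope transcripts on average, and 240 of the genes (75.2%) held 1. The genes with most were TRINITY_DN12500_c0_g1 with 14 and TRINITY_DN156303_c0_g1 with 12. Of the 289 components, 1 also held a transcript of another name: TRINITY_DN61243_c0 joined 2 Penelope transcripts and 1 of CR1. No sequence of these transcripts is shown, as the assembly was not used here.

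The quantification files covered 12 of these 497 transcripts, and 12 of 480 (2.50%) is close to the share in the name table. All 479 named transcripts of the files stood among the first 497 entries of the name table, so the 12 come from 1 end of that table. They held 57 reads in brain, 7 in the ovary-record library and 75 in the liver-record library. Against the reads of the table for the tissue of the same name this was 0.666%, 0.128% and 5.78%. With the ovary and liver files exchanged, the latter shares were 1.37% of the Ovary and 0.539% of the Liver column.

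All 12 transcripts were short, from 204 to 286 bases, with a median of 229 bases against 284 over the 480 transcripts. The median was the lowest of the 16 subfamilies in the files, shared with BovB, a LINE. A full-length Penelope element is longer than any of these transcripts. All 36 read values of the 12 transcripts were within 0.01 of a whole number, whereas 250 of the 1440 values in the files were not. No fractional assignment of reads was thus seen for Penelope in the files.

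Reads were found for 9 of the 12 transcripts in brain, 5 in the ovary-record library and 8 in the liver-record library. Over the 480 transcripts of the files, at least 1 read was found for 92.7%, 54.6% and 60.0%, against 75.0%, 41.7% and 66.7% of the Penelope transcripts. At the depth of the shallowest library, 4651 reads, 6.45 of the 12 would be expected with reads in brain and 6.73 in the liver-record library. Of the 245 transcripts in the files no longer than the longest member, 70.1% and 40.8% would be expected at that depth. Of the 12, 2 had reads in all 3 libraries, 6 in 2 and 4 in 1. Taken as 3 reads of the total, a count of 0 stands for a share of 0.0183% in brain, 0.0645% in the ovary-record library and 0.0282% in the liver-record library. The exact intervals of a count of 0 reach further, to 0.0225%, 0.0793% and 0.0347%.

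One transcript led the group and was the single member with at least 20 reads over the libraries. TRINITY_DN23049_c2_g1_i5, of 230 bases, had 23 reads in brain, 2 in the ovary-record library and 36 in the liver-record library. These were 0.140% (0.0889 to 0.210), 0.0430% (0.00521 to 0.155) and 0.338% (0.237 to 0.468) of the reads of each library. It was highest in the liver-record library, where its interval lay above those of both others, and the intervals of brain and the ovary-record library overlapped. Its share in brain was 2.41-fold lower than in the liver-record library (1.39 to 4.26), and that in the ovary-record library was 7.87-fold lower (2.02 to 67.4). Between brain and the ovary-record library the ratio was 3.26 (0.806 to 28.5), which gave no direction.

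The same read cluster held 2 further members. TRINITY_DN23049_c0_g1_i4, of 220 bases, had 1 read in brain, 0 in the ovary-record library and 13 in the liver-record library. TRINITY_DN23049_c2_g1_i7, of 246 bases, had 1, 0 and 6 reads. All 3 members of the cluster had their most reads in the liver-record library. For the first of these 2 further members the interval there (0.0650 to 0.209%) overlapped that of the ovary-record library (up to 0.0793%), and for the other (0.0207 to 0.123%) it overlapped those of both other libraries. Both fell short of 20 reads. The interval of their ratio of brain to the liver-record library lay below 1 (0.00117 to 0.332 and 0.00235 to 0.891). That of the ovary-record to the liver-record library did so for the first alone (0 to 0.751 and 0 to 1.94). The component TRINITY_DN23049_c2, the only one with more than 1 member, summed to 24, 2 and 42 reads, and its share was 2.70-fold lower in brain than in the liver-record library (1.60 to 4.66). The deposited names list 4 more transcripts of this cluster, all of them Penelope, that are outside the 480.

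The cluster as a whole held 25 of 57 Penelope reads in brain, 2 of 7 in the ovary-record library and 55 of 75 in the liver-record library. This was 43.9% (30.7 to 57.6), 28.6% (3.67 to 71.0) and 73.3% (61.9 to 82.9) of the Penelope reads. The cluster was singled out with its values in view, so these shares are a description and support no difference in makeup between the libraries.

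The 9 members outside the cluster held 32, 5 and 20 reads, or 0.195% in brain (0.133 to 0.275), 0.108% in the ovary-record library (0.0349 to 0.251) and 0.188% in the liver-record library (0.115 to 0.290). All 3 intervals overlapped. The largest of them, TRINITY_DN80110_c0_g2_i1, of 214 bases, had 6, 2 and 11 reads, and its brain share was 2.83-fold lower than in the liver-record library, with an interval from 0.958 to 9.31 that reached past 1. The other 8 had 2 to 7 reads each, too few for a ratio.

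These 8 split by library. TRINITY_DN309457_c0_g1_i1 had 7, 0 and 0 reads in brain, the ovary-record library and the liver-record library, and TRINITY_DN281337_c0_g1_i1 had 3, 0 and 0. TRINITY_DN260884_c0_g1_i1 had 6, 1 and 0 and TRINITY_DN229050_c0_g1_i1 had 5, 1 and 0. These 4 were without a read in the liver-record library. TRINITY_DN28855_c0_g1_i3 had 5, 0 and 1 reads. TRINITY_DN90160_c0_g1_i1 had 0, 0 and 3 reads, TRINITY_DN140669_c0_g1_i1 had 0, 0 and 2, and TRINITY_DN61639_c1_g1_i1 had 0, 1 and 3. These last 3 were without a read in brain. At this depth, a count of 0 does not show that a transcript was absent.

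**Figure D3:**
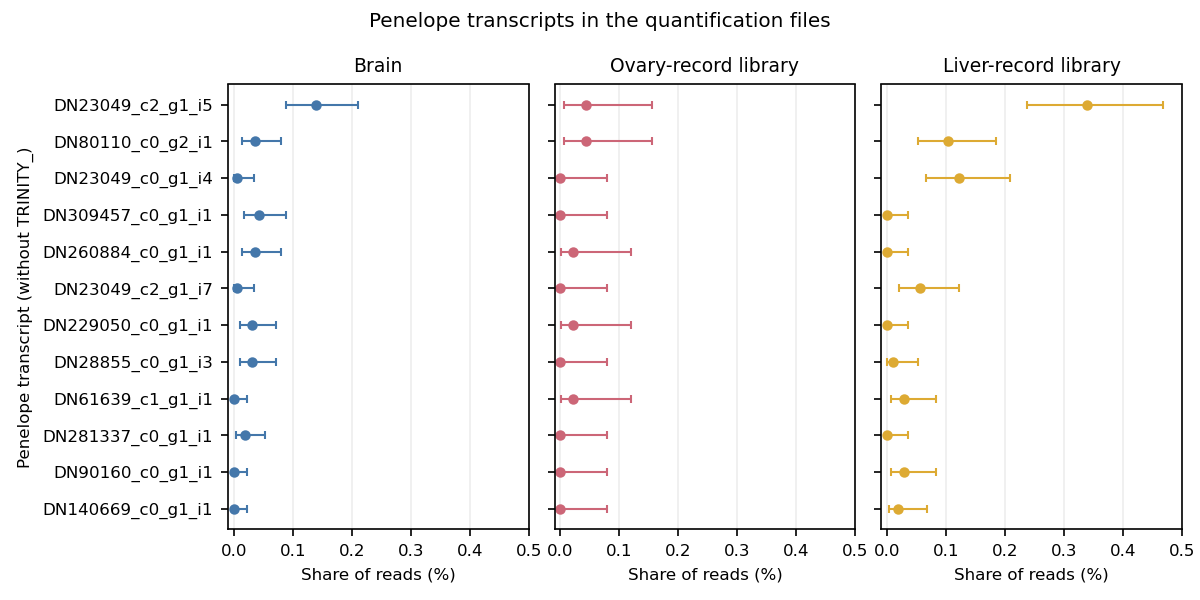
Share of each library's reads (%, horizontal axis, the same in every panel) for the 12 Penelope transcripts, ordered by reads over the 3 libraries; points are single libraries and bars are exact 95% counting intervals. The leading transcript, of cluster DN23049, reaches 0.338% in the liver-record library, with an interval above those of the other panels, and most others have intervals that overlap between panels.

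By the rule of 2-fold, 20 reads and an interval beyond 1, the other 11 transcripts had too few reads in every pair. The leading transcript was called lower in brain than in the liver-record library, as were 16.3% of the 135 transcripts with enough reads (51.1% were higher). It was called lower in the ovary-record library than in the liver-record library, as were 34.4% of 61, with an equal share higher. Between brain and the ovary-record library it was not called, where 33.1% of 118 were higher and 11.0% lower. Of the 11 components, 1 had enough reads. It was called lower in the same pairs, as were 12.5% of 112 and 28.3% of 46 components with enough reads (56.2% and 34.8% were higher). With a minimum of 10 reads, 2 Penelope transcripts and 2 components were lower in brain than in the liver-record library, as were 11.6% of 241 transcripts and 9.41% of 202 components. Without a minimum these were 3 and 2, beside 8.21% of 463 transcripts and 6.57% of 396 components. All of these Penelope calls were of the single read cluster TRINITY_DN23049. Only 3 of the 12 members had at least 10 reads over the libraries. By TPM with no interval, 1 Penelope transcript and 1 component were higher in brain than in the ovary-record library, as were 51.7% of 118 transcripts and 55.0% of 100 components.

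Summed over the 12 transcripts, Penelope took 0.347% of the file's reads in brain (0.263 to 0.450), 0.151% in the ovary-record library (0.0605 to 0.310) and 0.705% in the liver-record library (0.555 to 0.882). The liver-record library was the highest, and the other intervals overlapped. The share in brain was 2.31-fold higher than in the ovary-record library (1.05 to 6.00, on 57 and 7 reads). It was 2.03-fold lower than in the liver-record library (1.42 to 2.91), and that in the ovary-record library was 4.68-fold lower (2.16 to 12.0). Without cluster DN23049 the ratio of brain to the liver-record library was 1.04 (0.576 to 1.92). That of the ovary-record library to the liver-record library was then 0.572 (0.168 to 1.57), and that of brain to the ovary-record library was 1.81 (0.702 to 5.97). All 3 intervals included 1, so none of the pairs gave a direction without the cluster. The cluster was singled out with its values in view, and 32, 5 and 20 reads were left. This loss of direction therefore does not show that the remaining members were alike between libraries.

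With ovary and liver named by sample record, each of these summed directions was the opposite of that in the subfamily table. Shares in the files and in the table are of unlike totals, however. SINE3 made up 91.4%, 77.6% and 84.3% of the table's reads under Brain, Ovary and Liver. In the files it held 35 reads in brain, 8 in the ovary-record and 42 in the liver-record library. The files also cover only 12 of the 497 transcripts named Penelope. With the names of the ovary and liver files exchanged, the file named for the ovary was the highest and that named for the liver the lowest, and all 3 log2 ratios had the sign of the table. They were -1.02 for brain against ovary, 1.21 for brain against liver and 2.23 between ovary and liver. Brain lay between the other libraries in both data sets. The exchange therefore turns all 3 signs together, and they amount to 1 match of order. This match included cluster DN23049, which was singled out with its values in view, so leaving it out is no check of the match. Without the cluster, brain against the file named for the ovary had a log2 ratio of 0.054, beside -1.62 for brain over ovary in the table. The intervals of all 3 pairs then included 1, on 32 reads in brain, 5 in the ovary-record and 20 in the liver-record library. The labels give both namings. The liver-record library held 4136 ERV3 reads, beside 723 under Liver and 9592 under Ovary in the whole table. The totals of the table are far above those of the files, so it is not the sum of these files alone. ERV2 had 1214 reads in the ovary-record and 31 in the liver-record library, beside 4775 under Ovary and 68760 under Liver. Other subfamilies went both ways. NeSL had 8 reads in the ovary-record and 95 in the liver-record library, beside 421 under Ovary and 145 under Liver. By the record names, Gypsy and L2, a LINE, had a higher share for ovary, as in the table. Gypsy took 0.151% and 0.0376% of these libraries, on 7 and 4 reads, beside 1.99% and 0.278% of the columns. L2 had 804 of 4651 and 1109 of 10644 reads, and was 2.07-fold higher under Ovary than under Liver. Whether the table includes the reads of these files was not tested, and these counts do not settle the naming.

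The 407 other LINE transcripts of the files, summed, took a brain share 1.03 times that of the ovary-record library (0.989 to 1.07) and 1.15 times that of the liver-record library (1.12 to 1.19). Among 15 subfamilies with at least 20 reads and a read in both, the Penelope log2 ratio of -1.02 for that pair was the second lowest, after ERV2. Gypsy, nearest to Penelope in the table, had 64 reads in brain, 7 in the ovary-record library and 4 in the liver-record library, next to 57, 7 and 75 for Penelope. In the liver-record library Penelope thus had its highest share and Gypsy its lowest. This contrast rests on 4 Gypsy reads, and 55 of the 75 Penelope reads there were of cluster DN23049.

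Per length, Penelope stood higher in the files than by reads. TPM, an abundance corrected for length that sums to 1000000 over the 480 transcripts, gave a Penelope total of 14998 in brain, 6466 in the ovary-record library and 53795 in the liver-record library. It ranked 6, 7 and 4 of 16 subfamilies by TPM, against 9, 11 and 7 by reads. The leading transcript had a TPM of 5993 in brain and 24844 in the liver-record library, where it ranked 8 of 480 by TPM and 29 by reads. In the ovary-record library the highest member was TRINITY_DN80110_c0_g2_i1 with a TPM of 2240 from 2 reads. As TPM, the log2 ratio of brain over the liver-record library was -1.84 for all 12 members and -0.85 without cluster DN23049, where that of reads was 0.054. Outside the cluster the sign and size of this ratio thus differed between TPM and reads, and TPM carries no counting interval here.

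**Figure D4:**
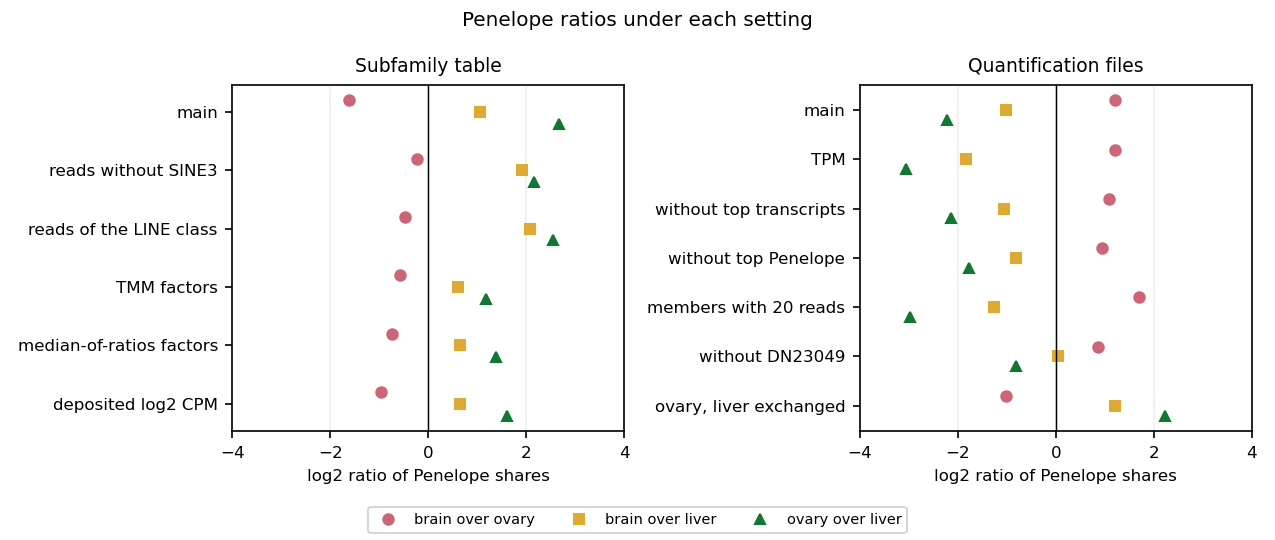
Log2 ratio of Penelope shares for each pair of tissues (horizontal axis; coloured symbols are the 3 pairs) under each setting, in the subfamily table (left) and in the quantification files (right, ovary and liver by sample record). Signs in the table are the same under every total and scaling shown, and those in the files are opposite to it (-1.02 for brain over liver against 1.05 in the table), except brain over liver without cluster DN23049 (0.054). With all 12 transcripts kept, the signs in the files match the table once the ovary and liver files are exchanged.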

How the data were processed

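Per the labels, total RNA was made into unstranded TruSeq libraries and sequenced on an Illumina HiSeq. The authors deposited estimated counts summed per element subfamily (31 rows), a log2 CPM table of 27 of these (base 2 taken from the values, scaling not given in the sources used here), and per-sample files with estimated counts and TPM in Salmon's column layout, per the file headers. The submitters' processing notes list Bowtie2 2.3.4.1 but give it no role. A deposited table names 19207 assembled transcripts.

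Shares have exact Clopper-Pearson 95% intervals and ratios exact conditional binomial ones, on counts rounded to whole reads (Python 3.11.15, scipy 1.17.1). The computation of the ratio intervals and the call rule was checked on simulated counts that held counting error only. These had the Brain and Liver totals of the subfamily table, not the smaller totals of the files. Only pairs with at least 20 reads together entered that check, and the share intervals did not. No test between tissues was made, with 1 library each. A count of 0 was set at 3 reads. Alternatives used TMM factors (edgeR 4.0.16) and median-of-ratios factors (DESeq2 1.42.0). Named were every Penelope transcript, the neighbours in rank and the 3 subfamilies nearest in pattern; CR1 and L1 were added as abundant LINEs after their values were seen. The members, lists and rules were chosen with earlier results of these data known.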

Additional observations from a re-analysis of the deposited data

How the results depend on the processing

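In the subfamily table Penelope kept its direction for all 3 pairs under each total and scaling tried, but not its size. Against the reads of single subfamilies the direction was not always kept. Brain over ovary turned against L1 (28.5 Penelope reads per 100 under Brain, 25.2 under Ovary). It also turned against Pao, Copia, ERV, ERV1, ERV2, ERV3 and SINEU, and held against the others with reads in each column. Both pairs with liver turned against some subfamilies, such as ERV3 and Gypsy. The log2 ratio of brain over ovary was -0.23 without SINE3, -0.48 among LINE-class reads, -0.59 with TMM factors, -0.73 with median-of-ratios factors and -0.96 in the deposited log2 CPM. That of brain over liver was 1.92, 2.08, 0.60, 0.64 and 0.64 in the same order, and that of ovary over liver was 2.16, 2.55, 1.19, 1.37 and 1.60. In the quantification files, exchanging ovary and liver turned all 3 log2 ratios, to -1.02, 1.21 and 2.23. TPM moved brain over liver to -1.84. Leaving out the cluster TRINITY_DN23049, an alternative added after seeing the data, brought it to 0.054 and ovary over liver to -0.81. With at least 10 reads 2 transcripts and 2 components were lower in brain than in the liver-record library. So were 11.6% of 241 transcripts and 9.41% of 202 components of the files. With no minimum the Penelope counts were 3 and 2, beside 8.21% of 463 and 6.57% of 396. All of these Penelope calls were of the cluster TRINITY_DN23049. By TPM without an interval 1 of each was higher in brain than in the ovary-record library, beside 51.7% of 118 and 55.0% of 100. At least 5 reads were found for 0 members in the ovary-record library and 4 in the liver-record library. In all, 61 recomputed values stayed within the interval of the main ratio or within 1.5 times the main count, while 25 moved beyond that and 4 changed sign. Of these 4, 3 came from the exchange of the ovary and liver files, which turns the 3 ratios together. The 61 include counts of 0 calls that stayed 0 and ratios from counts rounded to whole reads. The interval of brain over ovary in the files included 0 without the transcripts with most reads (log2 ratio 1.09, -0.042 to 2.47), without the leading Penelope transcript (0.95), with that transcript alone (1.71) and without the cluster (0.86). In the table the 2-fold call of brain over ovary ended under all 5 of the totals and scalings above, and that of brain over liver under the last 3. The cause of these shifts was not tested. The files limit what can be seen: 139 Penelope reads in all, 7 of them in the ovary-record library. No paired analysis was possible because each tissue has 1 library.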

Other observations

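The deposited log2 CPM of Penelope was 10.70 under Brain, 11.65 under Ovary and 10.05 under Liver, while plain log2 CPM from the deposited counts came to 10.61, 12.23 and 9.56. The deposited value was thus 0.085 above the plain one under Brain, 0.57 below it under Ovary and 0.49 above it under Liver. Over the 27 subfamilies this offset had a median of 0.30, -0.80 and 0.51, with a range from -0.78 to 1.37 under Brain, so it was not 1 factor per column.

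The effective length used for TPM differed between libraries for the same transcripts. Its median over the 12 Penelope transcripts was 83.9 bases in brain, 73.5 in the ovary-record library and 78.2 in the liver-record library, about a 36.5%, 32.0% and 33.8% share of their length (median). The Penelope share of TPM was 4.32 times its share of reads in brain, 4.30 times in the ovary-record library and 7.63 times in the liver-record library. These factors did not follow the order of the median effective lengths, and their cause was not tested.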
